A study of Drosophila melanogaster with 6 samples.

Results

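Transposable elements are repeated DNA families that copy or move themselves within a genome, and here each annotated copy had its own line in the count table. The 2046 copies described are the features annotated as transposable elements whose counts, summed over all 6 libraries, reached at least 10, out of 5571 transposable element features and 23882 features in all. Members were thus chosen by their summed counts, so their levels and concentration are given as descriptions, with no test. The samples were S2 cells, a Drosophila melanogaster line of embryonic origin, 3 days after double-stranded RNA (dsRNA) treatment, with RNA selected for poly(A). The control group (n = 2) received beta-gal dsRNA, which targets a bacterial gene, and the other groups received a dsRNA against the DEAD-box helicase gene Hlc, either Hlc dsRNA 2 (n = 2) or Hlc dsRNA 3 (n = 2). All groups share the cell line and the exposure to dsRNA, so no library is of untreated cells.

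LTR retrotransposons such as copia and gypsy carry long terminal repeats and copy themselves through an RNA intermediate, like retroviruses. Non-LTR retrotransposons also use an RNA intermediate but prime reverse transcription at the target site, and DNA transposons with terminal inverted repeats (TIR) are cut and pasted by a transposase. In fly somatic cells, S2 cells included, Dcr-2 cuts and AGO2 carries small interfering RNAs against transposon transcripts, whereas the piRNA pathway, with piwi as its nuclear effector, is known from the gonad.

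Libraries held 56195472 to 84283999 counts. Hlc itself had 15458 and 19095 counts in the control libraries against 1245 to 1883 in the 4 Hlc dsRNA libraries, a log2 fold change of -4.08 (SE 0.07, adjusted p = 3.48e-08). Of 11 hemocyte markers, which S2 cells are known to carry in part, 10 were tested, and 5 were higher and 3 lower with Hlc dsRNA. Of all features tested, 64.8% were called at adjusted p under 0.05 (edgeR), 32.2% higher and 32.6% lower. Their summed level was 5775 to 6087 CPM (counts scaled to a common library total) in the controls and 9454 to 10664 CPM with Hlc dsRNA, and the hemocyte genes NimC1 and Hml were close to 0. The higher sum came from the collagen IV genes Col4a1 and vkg, at 4718 to 5092 CPM in the controls and 8749 to 9871 CPM with Hlc dsRNA. On this scale the other 9 markers summed to 995 to 1057 CPM and 705 to 861 CPM, and their sum without scaling factors is not given. The germ line markers vas, nos, bam and osk summed to 1.42 and 1.44 CPM in the controls and 2.22 to 3.17 CPM with Hlc dsRNA. Of 3 ovarian soma markers, which summed to 56.5 and 58.2 CPM in the controls and 33.6 to 40.5 CPM with Hlc dsRNA, tj was at 0, Fas3 fell by 6.05 on the log2 scale and fs(1)Yb rose by 1.07. The controls also carried high levels of heat shock and immune transcripts: the 6 Hsp70 genes summed to 4310.4 and 4383 CPM in the controls and to 3.47 to 4.17 CPM with Hlc dsRNA, and the antibacterial peptide gene AttB took 1.78% and 1.81% of control counts against 0.0328% to 0.0379%. The part of these differences, and of the hemocyte markers, in the transposon results below was not tested. In bulk RNA, fewer cells with a transcript and less transcript per cell cannot be told apart.

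Sums were under 100 counts for 1023 copies, from 100 to under 1000 for 534, from 1000 to under 10000 for 258 and at least 10000 for 231, with a median of 100. At the threshold, 45 features had a sum of exactly 10, among them jockey{}846, HMS-Beagle{}390 and diver2{}540, and 60 had a sum of 9, among them Cr1a{}667, Rt1a{}696 and pogo{}844. The 10 counts of diver2{}540 all lay in 1 library, and so did the 9 counts of Rt1a{}696. Below the threshold lay 1193 features with 1 to 9 counts and 2332 with none.

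By class, 818 members were LTR retrotransposons of 59 families, and they held 91.9% of the transposable element counts. The 497 non-LTR copies held 2.85%, the 337 TIR copies 2.64%, and the 351 copies of INE-1, a short element that makes no protein of its own, 0.113%. A further 22 members without a class, RR51475 among them, held 2.51%, and 21 foldback copies held 0.00992%. By position, 1067 members lay inside an annotated gene, 500 on its strand and 567 on the other, and 141 shared bases with an exon. The 203 members on chromosome 4, the small and largely heterochromatic autosome, held 0.449% of the transposable element counts.

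Transposable elements took 4.97% and 5.32% of all counts in the control libraries, 6.82% and 6.64% with Hlc dsRNA 2, and 6.61% and 6.41% with Hlc dsRNA 3. The total had a copia component and a remainder that went in opposite directions. The copia copies went from 3.91% and 4.06% in the controls to 3.68% and 3.48% with Hlc dsRNA 2 and 3.09% and 2.75% with Hlc dsRNA 3. All other copies together went from 1.05% and 1.25% to 3.14% and 3.15%, then 3.51% and 3.66%. In replicate 2 of Hlc dsRNA 2, the second annotation of a copia copy, RR51475, is counted here among the other copies. With it placed under copia, that library stood at 3.64% for copia and 3.00% for the others. Neither component overlapped between control and Hlc dsRNA libraries.

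**Figure D1:**
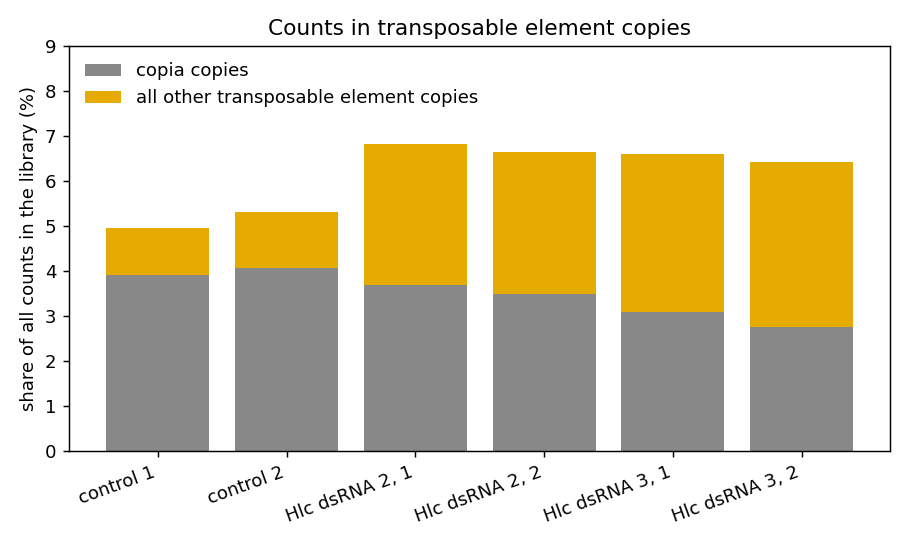
Share of all counts (%, y axis) in each of the 6 libraries, with copia copies in grey and all other transposable element copies, RR51475 included, in yellow. The grey part is between 2.75% and 4.06% and the yellow part rises from 1.05% and 1.25% in the controls to between 3.14% and 3.66% with Hlc dsRNA.

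The direction of the total depends on the scaling. As CPM of all counts, without scaling factors, the mean over the Hlc dsRNA libraries was 1.29 times the control mean. With the TMM factors (trimmed mean of M values, which set the bulk of features equal), it was 0.861 times, because the factors were 0.751 and 0.778 for the controls and 1.13 to 1.16 for the others. LTR copies other than copia were higher on both scales, 2.32 times with TMM factors and 3.46 times without. Non-LTR copies stood at 1.60 and 2.40 times the control level and INE-1 copies at 1.82 and 2.72 times, whereas TIR copies stood at 1.02 times with TMM factors and 1.52 times without. All CPM values and fold changes above and below use TMM factors unless stated otherwise.

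Control counts were concentrated in few copies. The 10 members with the highest mean CPM were all copia: copia{}1349, copia{}997, copia{}298, copia{}837, copia{}342, copia{}324, copia{}131, copia{}RR48399, copia{}RR48532 and copia{}372. Together they held 28.2% of transposable element counts in the controls, 19.7% with Hlc dsRNA 2 and 16.2% with Hlc dsRNA 3. After dividing each count by the length of the copy, the 10 densest copies held 24.5%, 19.9% and 17.8%. In the controls 19 copies made up 50% of the counts and 79 made up 90%. With Hlc dsRNA 2 the numbers were 28 and 144, and with Hlc dsRNA 3 they were 33 and 155. The whole copia family made up 77.5%, 53.4% and 44.5% of transposable element counts in the same order. The groups had comparable summed depth in raw counts (142685165, 127758705 and 141660416), and 173 members had no count in either control library against 38 for Hlc dsRNA 2 and 22 for Hlc dsRNA 3. On the TMM scale the controls were shallower, with factors of 0.751 and 0.778 against 1.13 to 1.16. The part of this in the numbers of members without counts was not tested. Because copies of a family share most of their sequence and no source used here says how reads that fit several copies were handled, counts at sister copies are not independent and may hold the same reads.

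**Figure D2:**
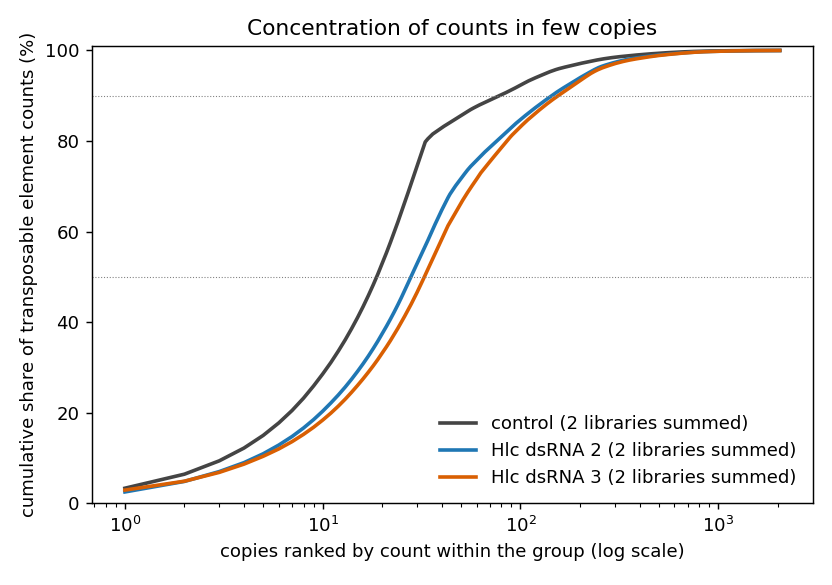
Cumulative share of transposable element counts (%, y axis) against copies ranked by count within each group (x axis, log scale), 2 libraries summed per group, with dotted lines at 50% and 90%. The control curve crosses 50% at 19 copies, before the Hlc dsRNA 2 curve at 28 and the Hlc dsRNA 3 curve at 33.

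Apart from copia, transposable element copies that changed were mostly higher after Hlc dsRNA. Of 1376 members that passed the filter on low counts, 593 were higher with the Hlc dsRNAs, both groups averaged, than in control and 64 lower at adjusted p under 0.05, and 719 did not pass the test. Over all 11293 features tested the same test called 64.8%, with 32.2% higher and 32.6% lower, so the members' 47.7% called was a smaller share, with more calls higher than lower. The log2 fold change and its adjusted p come from edgeR's quasi-likelihood test here and below. Over the tested members the median log2 fold change was 0.75, and over all features 0.04. Leaving out the scaling factors gave 827 higher and 49 lower and a median of 1.33 against 0.62 over all features, of which 56.1% were then higher and 16.1% lower. A further 670 members, all but RR51475 with a sum under 100, were not tested, and a member with counts in 1 group had to reach the filter through that group. The 593 members called higher include 21 with no count in either control library.

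Abundant copies, all but 1 of which were tested, were also more often called higher than lower, by shares that differed with the sum of counts. Among members with sums from 100 to under 1000, 36.1% were higher and 2.62% lower, against 26.6% and 18.6% of all features with such sums. Among members with sums from 1000 to under 10000, 72.1% were higher and 1.55% lower, against 43.0% and 28.4%. Among those with at least 10000 counts, 75.2% were higher and 16.5% lower, against 34.3% and 46.8%. The copia family had 31 lower copies, 0 higher and 3 not called, and 30 of its lower copies were among the 38 lower copies with such sums.

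With each dsRNA against the same control libraries, Hlc dsRNA 2 gave 533 members higher and 56 lower, beside 60.7% of all features called (30.4% higher and 30.3% lower). Hlc dsRNA 3 gave 568 members higher and 67 lower, beside 61.6% of all features called (29.9% higher and 31.6% lower). The comparisons share their control libraries and are therefore not independent. Without scaling factors the splits were 745 higher and 15 lower for Hlc dsRNA 2 and 818 higher and 50 lower for Hlc dsRNA 3. That scale moved all features upward, with 56.1% higher and 16.1% lower for both dsRNAs averaged. The shares for each dsRNA are not given here.

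**Figure D3:**
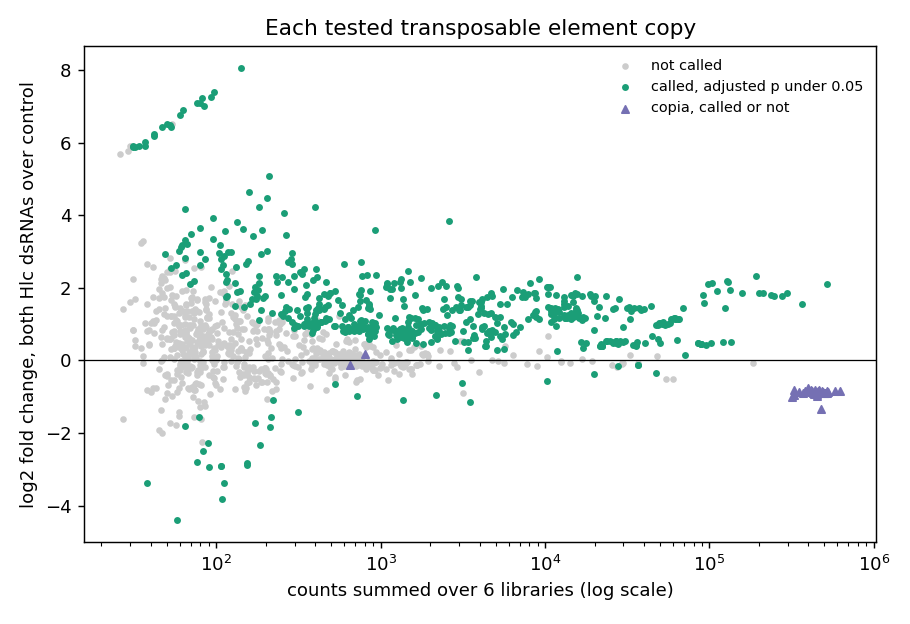
Log2 fold change of both Hlc dsRNAs over control (y axis) against counts summed over 6 libraries (x axis, log scale) for the 1376 tested copies, with called copies in green, others in grey and copia as purple triangles. Green points lie mostly above 0, most of the copia triangles lie below it at the right, and the arc at the upper left is of copies with no count in the controls, whose fitted fold changes depend on the prior count of the fit.

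Counts were also summed over all annotated copies of a family, which joins reads divided among the copies that carry the family's name, and fitted with their own TMM factors. In this fit 77 of 125 tested families were higher, 8 lower and 40 not called, while 66.8% of all features in that fit were called, 33.0% higher and 33.8% lower. Of the families, 39 were more than 2-fold higher and 3 more than 2-fold lower, with a median of 0.79 on the log2 scale. Hlc dsRNA 2 gave 77 families higher and 6 lower (63.1% of all features called, 31.9% higher and 31.2% lower) and Hlc dsRNA 3 gave 74 higher and 6 lower (62.6% called, 30.9% higher and 31.7% lower). Among LTR families 40 of 59 were higher and 4 lower, among non-LTR families 23 of 42 and 3, and among TIR families 11 of 19 and 1. Without scaling factors the split was 93 higher and 2 lower. The share of all features in that family fit is not given here, and with copies fitted singly it was 56.1% higher and 16.1% lower.

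The copia family, with 36 members, fell. Its level was 52131 and 52253 CPM in the controls, 32125 and 30927 CPM with Hlc dsRNA 2 and 27143 and 23717 CPM with Hlc dsRNA 3. Both controls were above all 4 other libraries, and the Hlc dsRNA 3 libraries were the lowest. On the log2 scale copia changed by -0.82 (SE 0.07, adjusted p = 1.83e-05), with -0.67 for Hlc dsRNA 2 and -0.97 for Hlc dsRNA 3. It remained lower without scaling factors, at -0.30 (adjusted p = 0.00316). RR51475 carries no family name and is left out of this sum. With it, replicate 2 of Hlc dsRNA 2 had 32307 CPM and the family stood at -0.80 on the log2 scale (SE 0.07, adjusted p = 1.88e-05).

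The 1731 family, from the same superfamily as copia and with 7 members, went the other way. It had 655 and 780.5 CPM in the controls, 3096 and 3009 CPM with Hlc dsRNA 2 and 3449 and 3341 CPM with Hlc dsRNA 3. The controls lay below all other libraries, and the family rose by 2.23 on the log2 scale (SE 0.09, adjusted p = 2.04e-07). Of its counts 48.5% lay in 1 copy, 1731{}2219 (2R:6346949-6351596, minus strand, intergenic), which had 16013 and 23624 counts in the controls, 123174 and 91831 with Hlc dsRNA 2 and 109474 and 157669 with Hlc dsRNA 3. This copy was chosen after its values were seen.

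Among the other families named for their abundance, 3S18 (14 members), an element of the BEL group, had 1604 and 1866 CPM in the controls, 5455 and 5222 CPM with Hlc dsRNA 2 and 6248 and 6691 CPM with Hlc dsRNA 3. Its log2 fold change was 1.82 (SE 0.08, adjusted p = 4.80e-07), with no overlap. The gypsy-like family blood (27 members) had 1675 and 2116 CPM in the controls, 3943 and 3833 CPM with Hlc dsRNA 2 and 5132 and 5348 CPM with Hlc dsRNA 3, a log2 fold change of 1.31 (SE 0.10, adjusted p = 8.10e-06). All 27 blood copies were called higher. The 297 family (53 members), also gypsy-like, rose by 1.31 (SE 0.07, adjusted p = 1.17e-06), with 46 copies higher and 0 lower. These counts of copies stand beside 32.2% of all features higher and 32.6% lower, and sister copies may hold the same reads. Rises were smaller for diver, at 0.53 (SE 0.09, adjusted p = 7.18e-04), and mdg1, at 0.56 (SE 0.11, adjusted p = 0.00215), and in both families the Hlc dsRNA libraries all lay above the controls.

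The TIR element pogo, with 40 members, did not pass the test. It had 1345 and 1364 CPM in the controls, 1346 and 1385 CPM with Hlc dsRNA 2 and 1253 and 1149.5 CPM with Hlc dsRNA 3, so the groups overlapped. Its log2 value was -0.02 (SE 0.05, adjusted p = 0.782), and 0.50 without scaling factors (adjusted p = 5.30e-05).

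**Figure D4:**
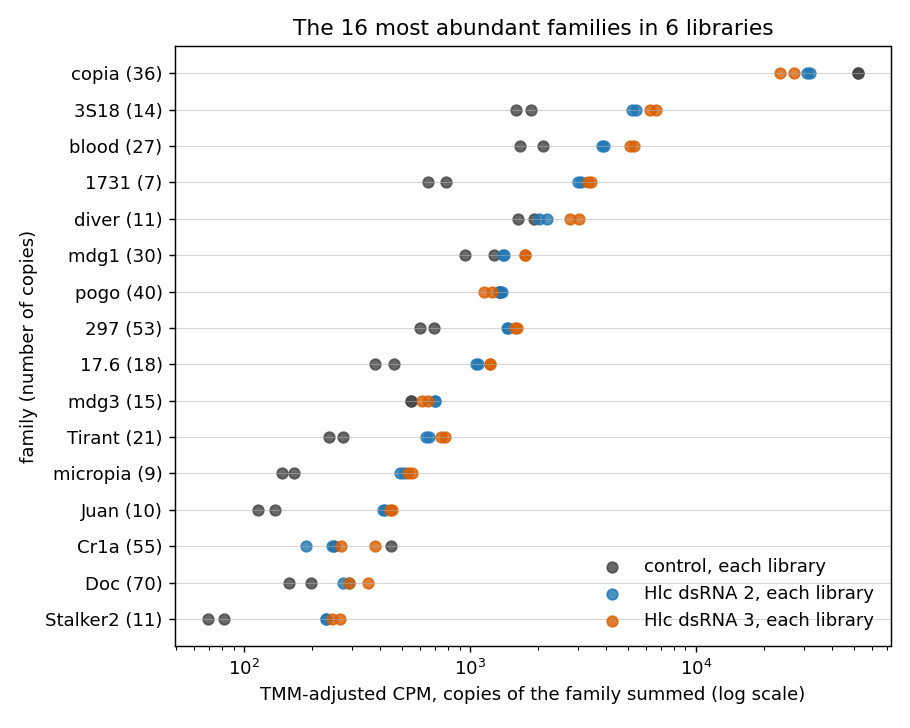
Level of the 16 most abundant families with at least 2 members (TMM-adjusted CPM with copies summed, x axis, log scale), 1 point per library in grey for control, blue for Hlc dsRNA 2 and orange for Hlc dsRNA 3, with the number of copies in parentheses. Control points lie to the left of the others for families such as 3S18, blood, 1731 and 297, to the right for copia, and among them for pogo and Cr1a.

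The families that follow were chosen after their values were seen. Counts of their copies called stand beside 32.2% of all features higher and 32.6% lower, and sister copies may hold the same reads. Among non-LTR elements, Juan had 116 and 137 CPM in the controls and 413 to 450.3 CPM in the Hlc dsRNA libraries, a log2 fold change of 1.83 (SE 0.08, adjusted p = 3.15e-07), and all 10 of its members were called higher. The jockey family rose by 1.58 (SE 0.07, adjusted p = 5.88e-07), with 35 copies higher, 0 lower and 7 not called. Doc rose by 0.83 (SE 0.11, adjusted p = 2.40e-04). The F family, by contrast, did not pass the test, at -0.11 (SE 0.08, adjusted p = 0.282), with 57 of its tested copies not called, and stood at 0.41 without scaling factors (adjusted p = 0.00505).

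In Drosophila, HeT-A and TART elements maintain chromosome ends in place of telomerase. TART-C had 9.28 and 10.1 CPM in the controls, 47.8 and 51.5 CPM with Hlc dsRNA 2 and 44.1 and 47.1 CPM with Hlc dsRNA 3. It was represented by 1 member, TART-C{}6275 (4:1288110-1289098, minus strand), near the right end of chromosome 4, and its family log2 fold change was 2.35 (SE 0.09, adjusted p = 1.71e-07). TART-A had 4.45 and 4.4 CPM in the controls against 16.4 to 19.3 CPM and rose by 2.05 (SE 0.10, adjusted p = 8.87e-07), with 2 copies called and both higher. HeT-A had 15.9 and 17.8 CPM against 29.3 to 35.4 CPM and rose by 0.99 (SE 0.08, adjusted p = 1.51e-05), with 8 copies higher, 0 lower and 5 not called. In these telomeric families every Hlc dsRNA library lay above both controls.

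R1 and R2 insert into the 28S ribosomal RNA genes, and each had 1 member under that family name. The members R1-2{}3096 and R1A1{}1519 stand under other family names and are not in these values. R1 fell, from 15.8 and 12.2 CPM in the controls to 8.13 and 7.99 CPM with Hlc dsRNA 2 and 4.89 and 5.07 CPM with Hlc dsRNA 3, a log2 fold change of -1.07 (SE 0.12, adjusted p = 1.05e-04). R2 rose, from 29.8 and 26.5 CPM to 86.7 and 81.3 CPM with Hlc dsRNA 2 and 50.1 and 46.7 CPM with Hlc dsRNA 3, a log2 fold change of 1.24 (SE 0.07, adjusted p = 1.82e-06). The groups did not overlap for either element.

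INE-1, the most numerous family with 351 members, had 44.6 and 47.3 CPM in the controls and 78.8 to 83.95 CPM with Hlc dsRNA, a log2 fold change of 0.90 (SE 0.05, adjusted p = 2.54e-06). Of its 139 tested copies 44 were higher, 4 lower and 91 not called. The roo family, with 130 members, did not pass the test, at 0.16 (SE 0.10, adjusted p = 0.208), and 118 of its copies were not called. Without scaling factors it was higher, at 0.68 (adjusted p = 8.68e-04). The accord family, summed, with 1 member, was lower at -0.50 (SE 0.09, adjusted p = 0.00199), but stood at 0.02 without scaling factors.

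Long copies were compared within a family. The 31 copia copies of 4424 to 5253 bp had sums within a 1.96-fold range (318794 to 623905 counts) and a median log2 fold change of -0.86, with 30 lower and 1 not called. The most abundant, copia{}1349 (3R:12920208-12925352, minus strand, in an intron of beat-Vb, a gene of the beaten path family, on the other strand), had 106817 and 137597 counts in the controls, 112708 and 87789 with Hlc dsRNA 2 and 76001 and 102993 with Hlc dsRNA 3, or a log2 fold change of -0.85 (SE 0.06, adjusted p = 1.10e-05). All 10 of the copia copies named above lay between -0.90 and -0.83. The 26 long blood copies, 5 long 1731 copies, 17 long 17.6 copies and 18 long Tirant copies were all called higher, although log2 fold changes within blood ranged from 0.97 to 2.1 and sums 29.6-fold. In 297, log2 fold changes of long copies spanned 0.01 to 1.81, with 29 of 30 called higher. Among all features with at least 10000 counts, 34.3% were higher and 46.8% lower. Among those with 1000 to under 10000 the shares were 43.0% and 28.4%. Long copies of a family may hold the same reads and cannot be counted as separate measurements.

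The long copia copy that was not called, copia{}539 (2L:22201408-22206551, minus strand, inside Ir40a), is annotated a second time as RR51475 with the same start, end and strand. copia{}539 had 100845 and 115869 counts in the controls, 108321 and 1 with Hlc dsRNA 2 and 69202 and 81008 with Hlc dsRNA 3. RR51475 had 0 and 1 counts in the controls, 1 and 87353 with Hlc dsRNA 2 and 1 and 1 with Hlc dsRNA 3. In replicate 2 of Hlc dsRNA 2 the counts thus stood under the other name. Summed, the locus had a log2 fold change of -0.82 (SE 0.09, adjusted p = 1.90e-04), against -1.34 (SE 1.58, adjusted p = 0.487) for copia{}539 by itself. In all, 32 annotated copies, 31 of them members, formed 16 such loci, in which 2 annotations overlapped by at least 90% of both. At F{}1152 and F{}4595 the controls had 89 and 0 counts under the first name and 8 and 141 under the second. The rows of these loci are not separate measurements.

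The largest rises named by the rule were all of low counts in the controls. Rt1b{}2523, a 347 bp piece of a non-LTR element (2L:22276285-22276631, minus strand, intergenic), had 0 and 2 counts in the controls, 49 and 40 with Hlc dsRNA 2 and 46 and 72 with Hlc dsRNA 3. Its fitted log2 fold change was 5.07 (SE 0.72, adjusted p = 6.27e-04), and the ratio of scaled counts was 36.6 with an exact 95% interval for counting error of 10.01 to 304. H{}236 (X:22406729-22413355, minus strand), of which 4694 of 6627 bp overlap other annotated copies, had 3 and 0 counts in the controls against 38 to 61, a ratio of 23.6 (interval 7.95 to 115.3).

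Stalker2{}4148 (3L:23587272-23588633, plus strand) lies in an intron of AGO3, a piRNA pathway Argonaute, on the same strand. It had 5 and 2 counts in the controls, 111 and 75 with Hlc dsRNA 2 and 66 and 141 with Hlc dsRNA 3, a log2 fold change of 4.23 (SE 0.49, adjusted p = 1.97e-04). AGO3 itself, with 222 and 306 counts in the controls, 169 and 144 with Hlc dsRNA 2 and 156 and 249 with Hlc dsRNA 3, fell by 1.06 on the log2 scale (SE 0.14, adjusted p = 4.58e-04). A copy and the gene around it thus moved in opposite directions. Rt1c{}269 (X:22719152-22720584, plus strand), inside lncRNA:CR44997, which had no count in any library, had 3 and 2 counts in the controls against 34 to 105 and a log2 fold change of 4.05 (SE 0.58, adjusted p = 6.41e-04). Stalker2{}1673 (2R:5378999-5394281, minus strand), a 15283 bp span made up of overlapping annotated copies, was the best counted of the 5, with 22 and 41 counts in the controls, 679 and 393 with Hlc dsRNA 2 and 694 and 790 with Hlc dsRNA 3. Its log2 fold change was 3.84 (SE 0.26, adjusted p = 1.27e-05). The rule took the largest rises among called copies whose groups did not overlap, so the adjusted p-values of these 5 are descriptions and add no support. All but Stalker2{}1673 had 0 to 5 counts in each control library and reached the filter through the Hlc dsRNA libraries. Another 26 tested members had no count in either control, with sums of 26 to 142 counts, and reached the filter through the Hlc dsRNA libraries alone. Of these, 21 were called higher.

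Of the 5 largest falls named by the rule, 3 lay in 1 interval. The falls were taken in the same way as the rises, so their adjusted p-values too are descriptions and add no support. Dm88{}1691 (3R:12489061-12490214), Dm88{}1694 (3R:12481096-12482249) and Dm88{}1689 (3R:12499587-12500860), all on the minus strand, are pieces of an LTR element inside the 34.7 kb between Hsp70Ba and Hsp70Bbb. This interval holds tandem Dm88, invader1 and micropia pieces, in part annotated as the noncoding lncRNA:alphagamma-element:CR32865, whose transcripts are known from heat-shocked flies. Dm88{}1691 had 48 and 62 counts in the controls, 16 and 12 with Hlc dsRNA 2 and 9 and 6 with Hlc dsRNA 3, a log2 fold change of -2.87 (SE 0.43, adjusted p = 8.30e-04). Dm88{}1694 had the same counts in 5 of the 6 libraries, so they cannot be counted as separate measurements. Dm88{}1689 had 57 and 62 counts in the controls against 20 to 27, a log2 fold change of -1.84 (SE 0.31, adjusted p = 0.00149).

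The interval was looked at as a whole after these values were seen. It holds 28 members, of which 26 overlap another annotated copy. Of the 24 tested, 5 were higher, 9 lower and 10 not called, beside 32.2% of all features higher and 32.6% lower. Of the 8 invader1 members here, those not tested had 1 to 7 counts in each control library and 1 to 5 in each Hlc dsRNA library. The 4 tested invader1 pieces all reached the filter through the control libraries. They fell, with log2 fold changes of -2.91 to -4.39. Of these, invader1{}1321 and invader1{}1334 had the same counts in every library. Each of the 4 also lies inside a Dm88 piece called lower: Dm88{}1694, Dm88{}1691, Dm88{}1664 or Dm88{}1689. The 9 lower pieces are therefore not 9 separate measurements. The piece invader1{}1345 (3R:12499770-12500190) had 41 and 49 counts in the controls. It had 6 and 5 with Hlc dsRNA 2 and 3 and 4 with Hlc dsRNA 3, with no overlap (log2 fold change -3.81, SE 0.47, adjusted p = 2.92e-04). All 3 micropia pieces rose, by 2.12 to 2.94, and the 2 Dm88 spans that enclose the longer micropia pieces rose with them. At micropia{}1325 (3R:12483203-12485253) the controls had 20 and 71 counts, Hlc dsRNA 2 310 and 335, and Hlc dsRNA 3 243 and 491, a log2 fold change of 2.46 (SE 0.41, adjusted p = 0.00147). The rise of the micropia pieces was of the same sign as that of the whole micropia family, at 1.80 (SE 0.07, adjusted p = 1.53e-07). The whole invader1 and Dm88 families also rose, at 0.42 (adjusted p = 0.00203) and 0.58 (adjusted p = 0.00548). Those signs were opposite to the 4 tested invader1 pieces and to 5 of the 7 called Dm88 pieces in the interval, which in part share bases. The flanking heat shock genes had 18306 and 25491 counts (Hsp70Ba) and 42105 and 53591 counts (Hsp70Bbb) in the controls against 17 to 32 and 42 to 70 with Hlc dsRNA, or log2 fold changes of -10.36 and -10.19. The noncoding gene itself fell by 1.14 (SE 0.30, adjusted p = 0.0135), a call that was lost without scaling factors (adjusted p = 0.153) and without control replicate 2 (adjusted p = 0.125). Hsp70Ba lies on the minus strand and Hsp70Bbb on the plus strand, so both are transcribed away from the interval. Whether reads from the Hsp70 genes enter these counts was not tested.

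**Figure D5:**
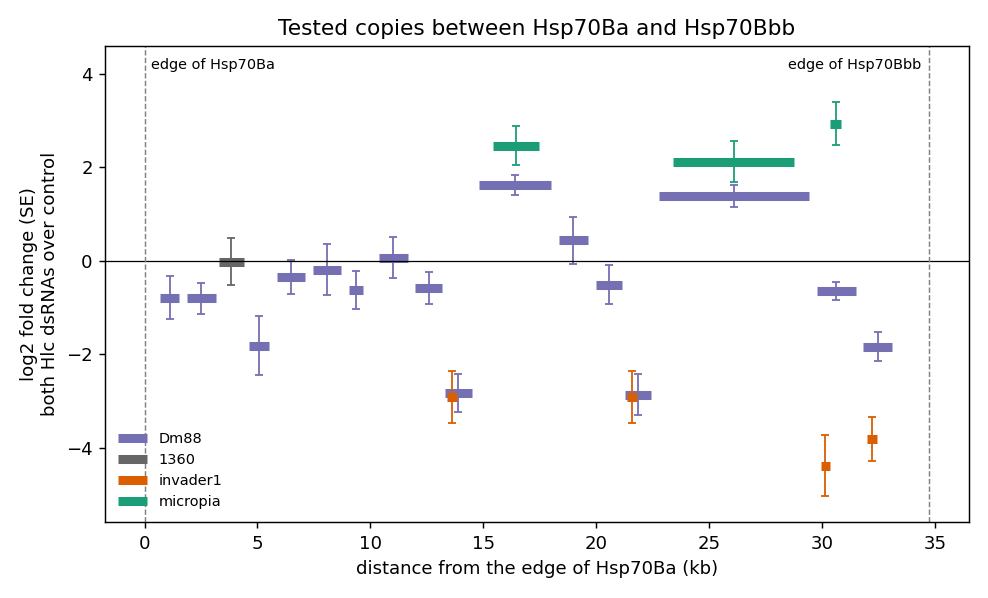
Log2 fold change of both Hlc dsRNAs over control (y axis, whiskers 1 SE) for the 24 tested copies between Hsp70Ba and Hsp70Bbb, drawn to scale by distance from the edge of Hsp70Ba (x axis, kb) and coloured by family. The invader1 pieces lie between -2.91 and -4.39, the micropia pieces between 2.12 and 2.94, and the Dm88 pieces on both sides of 0.

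The other named falls were short pieces inside genes. roo{}193 (X:21061919-21062346, minus strand, with 70 of its 428 bp in an exon of bves on the other strand) had 61 and 54 counts in the controls, 15 and 10 with Hlc dsRNA 2 and 13 and 31 with Hlc dsRNA 3, a log2 fold change of -2.33 (SE 0.38, adjusted p = 0.00122). Its host bves was higher, at 0.48 (SE 0.08, adjusted p = 0.00109). Cr1a{}968 (3L:9445470-9445647, minus strand), in an intron of CG33926 (Srg3 in the annotation) on the other strand, had 46 and 64 counts in the controls against 16 to 38, a log2 fold change of -1.57 (SE 0.33, adjusted p = 0.00418), and CG33926 was lower too, at -0.89 (SE 0.13, adjusted p = 7.60e-04), a call that was lost without scaling factors (adjusted p = 0.0556).

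Called hosts of the abundant copia copies differed from the copies inside them in the size of the change, and bbg also in its direction. Tg, host of copia{}324 on the same strand, fell by 5.35 on the log2 scale (SE 0.09, adjusted p = 2.69e-08), and rut, an adenylyl cyclase gene and host of copia{}131 on the same strand, fell by 1.46 (SE 0.04, adjusted p = 1.44e-07). toc, with copia{}298 on the other strand, fell by 1.66 (SE 0.27, adjusted p = 0.00114), whereas bbg, with copia{}997 on the other strand, rose by 0.59 (SE 0.20, adjusted p = 0.0364). beat-Vb did not pass the test (adjusted p = 0.132). The copies in these genes all stayed between -0.89 and -0.85.

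Across all members with a tested host, copies and hosts were weakly related. Over 260 copies on their host's strand, Pearson's r of the log2 fold changes was 0.13 and Spearman's rho 0.15. Over 288 copies on the other strand the values were 0.14 and 0.16. These are correlations across copies that share libraries, and sister copies share reads, so no p is given. On the host's strand 46.3% of copies were higher where the host was higher, 33.7% where it was lower and 46.3% where it was not called.

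Hlc dsRNA 3 and Hlc dsRNA 2 differed for 1 member, R2{}RR48361 (X:23220092-23223699, plus strand), which was lower with Hlc dsRNA 3. Of all features 0.0797% were called in this comparison, 0.0177% higher and 0.0620% lower. It had 1451 and 1602 counts in the controls, 7109 and 5146 with Hlc dsRNA 2 and 3277 and 4570 with Hlc dsRNA 3. The Hlc dsRNA 3 libraries stood between the controls and the Hlc dsRNA 2 libraries in CPM. The log2 difference of dsRNA 3 from dsRNA 2 was -0.80 (adjusted p = 0.0406). This call was lost in 8 of 15 alternative fits, among them 5 of the 6 that left out a library, with adjusted p up to 0.159. With families summed, R2 differed by -0.78 and invader4, an LTR family of 17 members, by -0.53, differences that were lost in 3 and in 5 of the 6 fits that left out a library, while 0.875% of all features in that fit were called, 0.328% higher and 0.547% lower. invader4 had 142 and 133 CPM in the controls, 186 and 185.5 CPM with Hlc dsRNA 2 and 134 and 121 CPM with Hlc dsRNA 3, which overlapped the controls.

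Genes that silence transposons changed in both directions. The counts that follow stand beside 64.8% of all features called, 32.2% higher and 32.6% lower, and without scaling factors beside 56.1% higher and 16.1% lower. All 10 genes of the small interfering RNA list passed the test, 4 higher and 6 lower, and their median stood at -0.24 on the log2 scale, whereas 7 were higher and 2 lower without scaling factors and 4 higher and 4 lower with upper-quartile factors. The RNA-binding gene blanks fell by 1.02 (SE 0.06, adjusted p = 5.45e-06) and vig by 0.74 (SE 0.05, adjusted p = 1.11e-05). Hen1, which methylates small RNA ends, rose by 1.29 (SE 0.12, adjusted p = 5.45e-05), Tudor-SN by 0.62 (SE 0.05, adjusted p = 3.18e-05) and Fmr1 by 0.62 (SE 0.06, adjusted p = 5.75e-05). The effectors AGO2 and Dcr-2, named after their values were seen, were lower, at -0.38 (SE 0.06, adjusted p = 0.00142) and -0.30 (SE 0.06, adjusted p = 0.00369), but called higher, at 0.20 and 0.28, without scaling factors (adjusted p = 0.0489 and 0.0123).

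Of 26 tested piRNA pathway genes 13 rose, 3 fell and 10 did not pass the test (median 0.29 on the log2 scale), against 22 higher and 1 lower without scaling factors. piwi had 167 and 175 counts in the controls and rose by 2.24 (SE 0.12, adjusted p = 3.85e-06), from 3.16 to 14.9 CPM on average. zuc, the nuclease that cuts piRNA precursors, rose by 2.49 (SE 0.15, adjusted p = 7.49e-06), the helicase gene armi by 2.14 (SE 0.12, adjusted p = 4.04e-06), papi by 1.36 (SE 0.07, adjusted p = 2.29e-06) and squ by 0.83 (SE 0.05, adjusted p = 8.17e-06).

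Among 25 nuclear silencing and heterochromatin genes 16 rose, 4 fell and 5 did not pass the test, with a median of 0.42, and without scaling factors 22 were higher and the other 3 did not pass the test. sov rose by 1.31 (SE 0.08, adjusted p = 5.35e-06), Panx, which links piwi to transcriptional silencing, by 1.36 (SE 0.11, adjusted p = 3.65e-05), nxf2 by 0.83 (SE 0.07, adjusted p = 3.95e-05), Nup358 by 0.86 (SE 0.06, adjusted p = 9.18e-06) and HDAC1 by 0.57 (SE 0.04, adjusted p = 2.12e-05). Among 15 exon junction and nuclear RNA decay genes 13 were higher and 1 lower (median 0.53), and without scaling factors 14 were higher. The smallest adjusted p-values were those of vito at 2.09 (SE 0.11, adjusted p = 3.98e-06), Ski6 at 1.40 (SE 0.13, adjusted p = 5.98e-05) and Rrp40 at 0.94 (SE 0.09, adjusted p = 7.53e-05), CG7483, the eIF4AIII gene, at 0.59 (SE 0.05, adjusted p = 3.22e-05) and Acn at 0.53 (SE 0.04, adjusted p = 2.80e-05). Transcripts of the silencing genes and of the transposons were measured in the same libraries, and their relation was not tested.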

How the data were processed

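RNA from 6 S2 libraries was selected for poly(A) and made into libraries with a TruSeq kit, per the labels' protocols. Per the submitters' processing notes, Trimmomatic 0.36, TopHat2 2.1.0, StringTie 2.1.7 and the build BDGP6 were used. The authors deposited whole-number counts per annotated feature, and how reads that fit several places or strands were counted is not given in the sources used here.

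Features were matched to the Ensembl BDGP6.54 annotation, release 115, which gave positions and family names (5569 of 5571 transposable element features matched); family classes were assigned by hand. Counts were fitted in R 4.3.3 with edgeR 4.0.16 (quasi-likelihood F test, TMM factors, filterByExpr) on all 23882 features and 6 libraries with 1 term per group. Benjamini-Hochberg adjustment ran over all 11293 features tested, and a call is an adjusted p under 0.05. SE is the log2 fold change divided by the root of F. CPM is scaled by TMM factors. The script was checked on simulated counts.

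Named copies were the 10 most abundant, the 5 largest rises and 5 largest falls with at least 50 mean counts in the higher group and no overlap, those called between the dsRNAs, the 8 most abundant families, host genes and the 5 genes per list with the smallest adjusted p. Members and lists were chosen with earlier results of these data known. The design text calls the replicates biological; nothing says they came from separate cultures, so p-values measure the spread between these libraries. Intervals cover counting error only. Alternatives were other scalings, filters and tools (DESeq2 1.42.0, limma 3.58.1), a replicate block, libraries left out, families, loci and stricter member sets. Loci, other fits of families, copia with RR51475, hemocyte markers in 2 parts and other scalings of listed and host genes were chosen after seeing the data. Replicate numbers did not pair the samples.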

Additional observations from a re-analysis of the deposited data

Results flagged for a closer look

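Hlc dsRNA 3 and Hlc dsRNA 2 differed, by a test of the difference itself, for R2{}RR48361 (log2 difference -0.795), for the R2 family summed (-0.785) and for the invader4 family (-0.534). These calls were lost in 5, 3 and 5 of the 6 fits that left out 1 library. R2{}RR48361 is the R2 family's 1 member, so its values come from nearly the same counts. Both dsRNAs raised R2 over control, by 1.64 and 0.85 on the log2 scale with families summed, whereas invader4 stood at 0.49 with Hlc dsRNA 2 and at -0.04 (edgeR adjusted p = 0.611) with Hlc dsRNA 3.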

How the results depend on the processing

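Total counts of copies called against control stayed within 1.5 times under every other scaling, filter and tool run. Leaving out 1 library gave 563 to 604 copies for both dsRNAs, 422 to 569 for Hlc dsRNA 2 and 514 to 584 for Hlc dsRNA 3. With copies summed to families, 95, 92 and 90 families or copies with no family name were called against control and 2 between the dsRNAs; the smaller counts follow from fewer units tested. Between the dsRNAs, 0 copies were called with library size alone, with the replicate block and with the compared groups fitted by themselves, 3 with no filter, 14 with at least 1 CPM in 4 libraries, 93 by DESeq2 and 49 by limma-voom, and 0 to 35 without 1 library (35 without dsRNA 3 replicate 1). The share of all features called in each of these fits between the dsRNAs is not given here. The counts therefore cannot be read as particular to transposable elements. The cause of their differences was not tested. Replicate numbers are shared by the groups but did not pair the samples (correlations of same-numbered deviations -0.06, 0.09 and -0.11 over 11293 features), and the replicate block gave 623, 556 and 592 copies against control. The 10 top copies held 24.5% of length-scaled counts in the controls and 17.8% with Hlc dsRNA 3. Signs turned, with no cause tested, as follows. With library size alone, log2 fold changes were 0.0656 for Cr1a{}1995, 0.0679 for Cr1a{}2297, 0.0213 for accord{}818 and also for the accord family, 0.50 for pogo, 0.18 for Cr1a and 0.41 for F, and upper-quartile factors gave 0.12 for pogo and 0.0286 for F. Without 1 library, Cr1a{}1995 ranged from -0.89 to 0.00982, pogo from -0.0493 to 0.0121, the Cr1a family from -0.70 (called, without control replicate 1) to 0.16, roo from -0.00536 to 0.35 (called, without control replicate 2) and F from -0.24 (called, without control replicate 1) to 0.0351. TMM factors put the median of all features at 0.04, upper-quartile factors at 0.19 and library size at 0.62, and the median of the tested copies at 0.75, 0.90 and 1.33. Copies with few counts in the controls are limited by depth, as their counting intervals show.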
